A study of Mus musculus with 10 samples.

Results

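The core circadian clock genes are the 10 transcripts Arntl, Clock, Npas2, Nr1d1, Nr1d2, Per1, Per2, Per3, Cry1 and Cry2. They were selected by name from a table of 55401 genes, and each name matched 1 row. RNA was sequenced from the livers of 5 NIKhKO and 5 NIKflox mice. NIK is NF-kB inducing kinase, the product of Map3k14; the study's design text calls the genotypes NIKHKO and NIKF/F, and its title speaks of hepatic NIK. All mice of both genotypes received the Lieber-DeCarli liquid diet with 5% ethanol over 4 weeks, so no library comes from a mouse without ethanol. The Cre driver, the part of Map3k14 removed, age, sex, feeding schedule and the time of day at which the livers were taken are not given in the sources used here.

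The clock is a feedback loop of transcription factors that runs in nearly every cell. ARNTL (also called BMAL1) pairs with CLOCK, or with its relative NPAS2, and activates genes that carry E-box sequences, among them the Per, Cry and Nr1d genes. PER and CRY proteins then return to the nucleus and inhibit that pair, while NR1D1 and NR1D2 (the REV-ERB proteins) repress Arntl, Npas2 and Clock through sequences called ROR elements. In the liver of a mouse kept in light and dark, Arntl, Clock and Npas2 transcripts are highest from the late dark phase to the early light phase, Nr1d1 peaks in the light phase, Nr1d2 and Per3 follow it, Per1 and Per2 peak around the change to darkness, and Cry1 peaks during the dark phase. Feeding time, glucocorticoids and body temperature also set the liver clock.

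Promoters of 4 members are shown because they hold motifs of the kinds through which the members are known to regulate one another. RefSeq promoter sequences of GRCm38.p6, each from 250 bases before to 50 bases after a transcript start, matched 9 of the 10 members, with 13 promoters in all and none for Per2. Searched on both strands were the E-box CACGTG, the related E-prime box CACGTT, the ROR element cores TAGGTCA and TGGGTCA, the D-boxes TTATGTAA and TTACGTAA, to which DBP binds, and the cyclic AMP response element TGACGTCA. Capitals below mark these matches, and positions count from the transcript start, with -1 as the last base before it.
Arntl (chr7:113207261-113207560, plus strand): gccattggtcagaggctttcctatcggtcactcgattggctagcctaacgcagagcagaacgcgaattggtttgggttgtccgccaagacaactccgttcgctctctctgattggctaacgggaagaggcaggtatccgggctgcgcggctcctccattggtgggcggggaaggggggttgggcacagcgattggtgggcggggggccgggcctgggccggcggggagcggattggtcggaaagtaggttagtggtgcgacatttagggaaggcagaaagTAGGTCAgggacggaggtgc
Cry1 (chr10:85185005-85185304, minus strand): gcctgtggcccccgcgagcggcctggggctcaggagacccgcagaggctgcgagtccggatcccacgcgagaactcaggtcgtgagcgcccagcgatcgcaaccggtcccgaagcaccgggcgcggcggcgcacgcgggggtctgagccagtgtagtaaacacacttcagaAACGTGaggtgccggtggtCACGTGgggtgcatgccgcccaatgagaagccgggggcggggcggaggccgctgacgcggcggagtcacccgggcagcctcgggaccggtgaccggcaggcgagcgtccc
Per3 (chr4:151044616-151044915, minus strand): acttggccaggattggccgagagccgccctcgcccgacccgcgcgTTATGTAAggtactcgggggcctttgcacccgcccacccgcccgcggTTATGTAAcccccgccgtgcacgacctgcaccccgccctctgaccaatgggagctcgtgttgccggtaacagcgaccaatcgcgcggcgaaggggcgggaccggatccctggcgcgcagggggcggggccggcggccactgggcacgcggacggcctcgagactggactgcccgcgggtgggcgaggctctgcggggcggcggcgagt
Nr1d1 (chr11:98775328-98775627, minus strand): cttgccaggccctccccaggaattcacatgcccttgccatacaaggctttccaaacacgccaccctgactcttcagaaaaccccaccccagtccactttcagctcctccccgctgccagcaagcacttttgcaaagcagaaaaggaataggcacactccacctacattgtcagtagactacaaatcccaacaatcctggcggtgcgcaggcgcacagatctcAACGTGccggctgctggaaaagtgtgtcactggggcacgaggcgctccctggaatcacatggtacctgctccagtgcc
In Arntl, TAGGTCA lies at 31 to 37, in the promoter of its second listed start. Cry1 holds CACGTG at -60 to -55 and, on the reverse strand, the E-prime box at -79 to -74. Per3 holds TTATGTAA at -205 to -198 and again at -158 to -151. Nr1d1 holds the E-prime box on the reverse strand, at -28 to -23. Of all 32851 promoters in the same table, 2.61% held TAGGTCA, 7.15% CACGTG, 4.68% CACGTT and 0.938% TTATGTAA. The other matches were CACGTG in Per1 at -166 to -161 and the E-prime box in Cry2 at -166 to -161. No member's promoter held TGGGTCA, TTACGTAA or TGACGTCA, which 3.98%, 0.119% and 1.79% of all promoters held. A match describes the letters in this window and is no evidence of binding.

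Measured levels are given in FPKM, fragment counts scaled to transcript length and library total, which allows levels of different genes to be set side by side. Total estimated counts ran from 53225028 to 64321202 in NIKhKO and from 47161869 to 65052525 in NIKflox libraries. Map3k14 itself averaged 0.383 ± 0.0372 FPKM in NIKhKO and 0.606 ± 0.168 FPKM in NIKflox (SD, n = 5 each), with ranges that did not overlap (log2 fold change -0.59, SE 0.19, edgeR adjusted p = 0.33). Hepatocyte markers summed to between 44314 and 51305 FPKM in NIKhKO and between 39531 and 54326 FPKM in NIKflox, and all 7 of those in the table were detected. The 8 heart muscle markers summed to 0.118 to 0.958 FPKM in NIKhKO and 0.123 to 28.8 FPKM in NIKflox, where NIKflox 4 had 28.8 and NIKflox 2 had 6.90 FPKM. The 5 cholangiocyte markers summed to 15.8 to 26.9 FPKM in NIKhKO and 26.1 to 46.2 FPKM in NIKflox, and the 6 B cell markers to 5.31 to 14.4 FPKM in NIKhKO and 3.60 to 6.58 FPKM in NIKflox. All of these sums overlapped between the genotypes, as did those of stellate, sinusoidal endothelial, Kupffer and T and NK cell markers. No marker list had a gene at 0 in all libraries. In bulk tissue, fewer cells of a type and less RNA per cell cannot be told apart, and the part of these markers in the clock values was not tested. Transcripts of small and ribosomal RNA took 1.27 to 1.95% of counts in NIKhKO 3, 4 and 5, against 0.233 to 0.961% in the other 7 libraries.

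All 10 members passed the filter on low values and were tested. Nr1d1 had the highest mean level over the 10 libraries, 15.3 FPKM, followed by Cry1 at 5.17, Nr1d2 at 4.67, Cry2 at 3.90, Per2 at 3.55, Arntl at 2.60, Per1 at 2.49, Npas2 at 2.08 and Clock at 1.79 FPKM. Per3 was lowest, at 0.696 FPKM. From Cry1 to Clock, each neighbour in this order differed by less than the SD of at least 1 of the pair within a genotype, whereas Nr1d1 lay above Cry1, and Per3 below Clock, by more than that. The order was not tested.

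Mean levels of the activators, Per1 and Cry1 were lower in NIKhKO livers, and those of the REV-ERB genes, Per2, Per3 and Cry2 were higher, but no single member passed the test over all genes. In edgeR's quasi-likelihood test 0 of the 10 members had an adjusted p below 0.05, where 0.0236% of the 12731 genes tested did (0.0157% higher and 0.00785% lower in NIKhKO, 3 genes). At an unadjusted p below 0.05 there were 6 members. Of these 4 were higher in NIKhKO, Nr1d1, Nr1d2, Per3 and Cry2, where 4.85% of all genes tested were, and 2 were lower, Arntl and Per1, where 5.14% were. DESeq2 called 1 member, Nr1d1, where it called 1.66% of genes (1.01% as higher in NIKhKO). Limma on log2(FPKM + 1) called 0 genes, with 4 members and 1375 of the 12731 genes tested at an unadjusted p below 0.05. Those members were Nr1d1, Nr1d2, Arntl and Per1, while limma's unadjusted p was 0.074 for Per3 and 0.18 for Cry2. In edgeR scaled to total counts only, the unadjusted p was 0.19 for Cry2 and 0.031 for Cry1. The median size of the log2 fold change, whatever its sign, was 0.60 over the members and 0.14 over all genes tested, while the signed medians were -0.04 and -0.010. Members regulate one another, so they are not 10 separate observations.

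**Figure D1:**
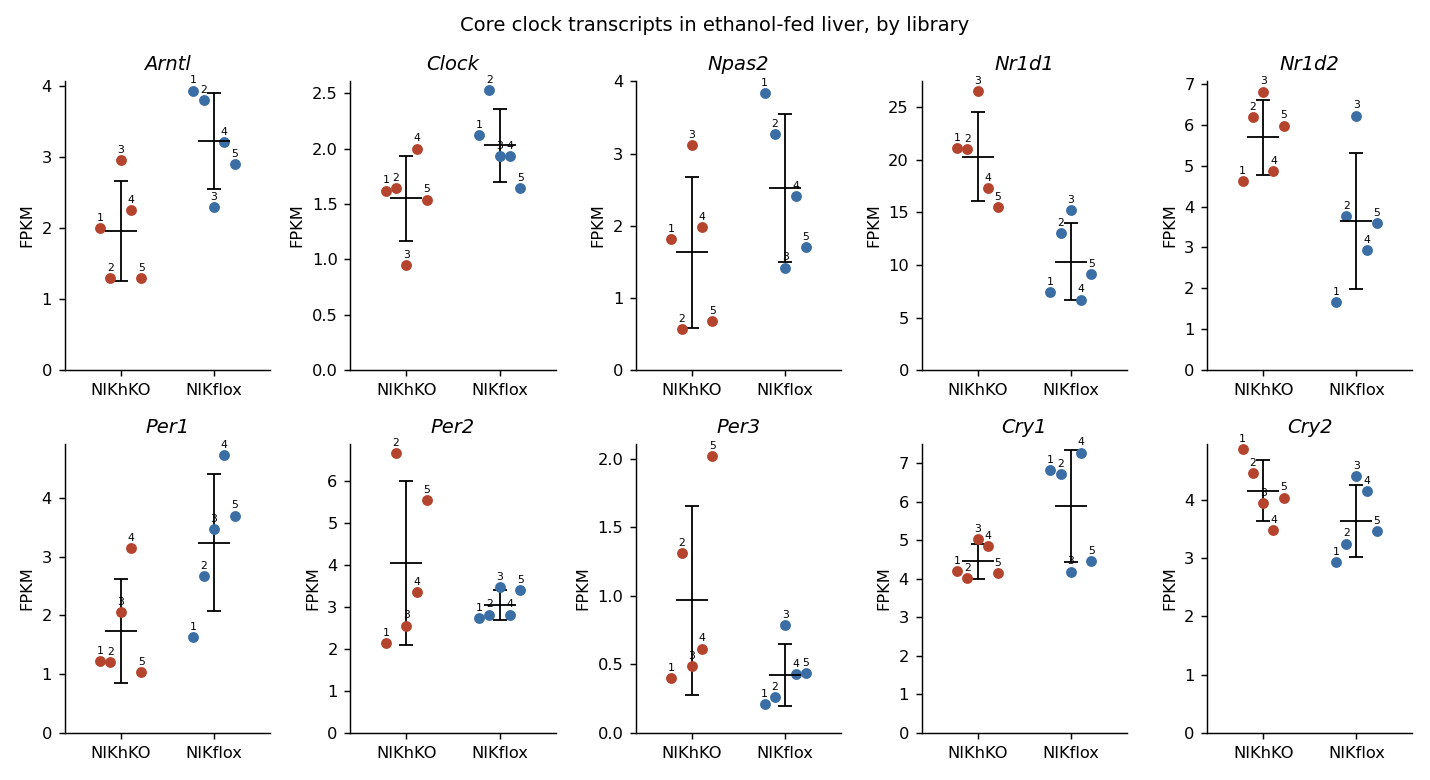
FPKM of each member (vertical axes, starting at 0) in the 5 NIKhKO (red) and 5 NIKflox (blue) libraries; numbers name the library, long bars are means and error bars SD. Nr1d1 is the member whose groups do not overlap (15.5 FPKM and above in NIKhKO, 15.2 FPKM and below in NIKflox), and NIKhKO 2 and 5 are lowest for Arntl and Npas2 and highest for Per2 and Per3.

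Nr1d1 encodes REV-ERB alpha, the haem-binding repressor of Arntl. Its level was 21.1, 21.0, 26.5, 17.3 and 15.5 FPKM in NIKhKO 1 to 5, and 7.45, 13, 15.2, 6.72 and 9.14 FPKM in NIKflox 1 to 5. Every NIKhKO library lay above every NIKflox library, although NIKhKO 5 and NIKflox 3 were almost level. Ranges that did not overlap were found for 1 of the 10 members, against 2.20% of the genes tested (0.605% higher and 1.59% lower in NIKhKO). The means were 20.3 ± 4.24 FPKM in NIKhKO and 10.3 ± 3.64 FPKM in NIKflox (SD, n = 5 each). The log2 fold change was 1.04 (SE 0.24, 95% interval 0.52 to 1.56), a 2.06-fold higher level in NIKhKO, and edgeR's adjusted p was 0.23 (unadjusted p = 0.00098). DESeq2 gave an adjusted p of 0.0036, while the other alternatives gave 0.15 to 0.57.

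Nr1d1 (ENSMUSG00000020889, chromosome 11, 98767932 to 98775333, minus strand) lies tail to tail with Thra, the thyroid hormone receptor alpha gene on the plus strand. In the GENCODE M21 annotation of GRCm38 Thra overlaps Nr1d1 by 1075 bases, while in the deposited table its end, 98765111, lies short of Nr1d1. The sources used here do not say whether strand was used in counting. If it was not, and counting used the deposited coordinates, reads of either strand from this stretch would be credited to Nr1d1. Thra averaged 5.37 ± 0.771 FPKM in NIKhKO and 4.43 ± 0.509 FPKM in NIKflox (SD, n = 5 each), a log2 difference of 0.34 (SE 0.12) with an adjusted p of 0.37 in edgeR. Its part in the Nr1d1 value was not tested.

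Nr1d2 encodes REV-ERB beta, which shares the repressor function. It read 4.63, 6.18, 6.81, 4.87 and 5.98 FPKM in NIKhKO 1 to 5, and 1.67, 3.76, 6.22, 2.94 and 3.59 FPKM in NIKflox 1 to 5. NIKflox 3 lay among the NIKhKO libraries, and the other 4 NIKflox libraries lay below all of them. The log2 fold change was 0.72 (SE 0.27, 95% interval 0.12 to 1.31), with an edgeR adjusted p of 0.40. Nr1d2 (ENSMUSG00000021775) lies on chromosome 14, 18204054 to 18239127, minus strand.

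Arntl encodes the partner without which the CLOCK and NPAS2 proteins do not activate their targets. It read 2.0, 1.3, 2.96, 2.25 and 1.3 FPKM in NIKhKO 1 to 5, and 3.94, 3.81, 2.30, 3.21 and 2.9 FPKM in NIKflox 1 to 5. NIKhKO 2 and 5 were lowest, and NIKhKO 3 reached into the NIKflox range. Without NIKhKO 3 the Arntl ranges did not overlap, though ranges separate more easily with fewer libraries. The means were 1.96 ± 0.699 FPKM in NIKhKO and 3.23 ± 0.674 FPKM in NIKflox (SD, n = 5 each). The log2 fold change was -0.65 (SE 0.26, 95% interval -1.21 to -0.09), with an edgeR adjusted p of 0.43. Arntl (ENSMUSG00000055116) lies on chromosome 7, 113207465 to 113314126, plus strand.

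Npas2, which can stand in for Clock, read 1.81, 0.573, 3.12, 1.98 and 0.681 FPKM in NIKhKO 1 to 5, and 3.84, 3.27, 1.42, 2.41 and 1.70 FPKM in NIKflox 1 to 5. The groups overlapped over most of their range, with NIKhKO 2 and 5 below all others. Its log2 fold change of -0.56 had an SE of 0.47 and a 95% interval from -1.58 to 0.46 (edgeR adjusted p = 0.77). It was -0.33 without NIKhKO 2 or without NIKflox 1, and -0.96 without NIKhKO 3. Clock, whose transcript oscillates less than that of Arntl in mouse liver, read 1.62, 1.64, 0.947, 2.0 and 1.54 FPKM in NIKhKO 1 to 5, and 2.12, 2.53, 1.93, 1.93 and 1.64 FPKM in NIKflox 1 to 5. NIKhKO 3 was lowest for Clock while being highest of the NIKhKO libraries for Arntl and Npas2. The Clock log2 fold change was -0.33 (SE 0.18, 95% interval -0.72 to 0.06, edgeR adjusted p = 0.59). The pseudogene Ube2n-ps1 lies within the span of Clock on the same strand and averaged 4.58 FPKM, and the sources used here do not say how reads were divided there. Npas2 (ENSMUSG00000026077) lies on chromosome 1, 39193731 to 39363236, plus strand, and Clock (ENSMUSG00000029238) on chromosome 5, 76209868 to 76304792, minus strand.

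Per1, an inhibitor of the activators that also responds directly to glucocorticoids, read 1.22, 1.21, 2.06, 3.14 and 1.04 FPKM in NIKhKO 1 to 5, and 1.63, 2.67, 3.47, 4.73 and 3.70 FPKM in NIKflox 1 to 5. NIKhKO 1, 2 and 5 lay below all NIKflox libraries, and the groups overlapped through NIKhKO 3 and 4 and NIKflox 1 and 2. The means were 1.73 ± 0.883 FPKM in NIKhKO and 3.24 ± 1.16 FPKM in NIKflox (SD, n = 5 each), with a log2 fold change of -0.81 (SE 0.34, 95% interval -1.56 to -0.07, edgeR adjusted p = 0.46). Per1 (ENSMUSG00000020893) lies on chromosome 11, 69095217 to 69109960, plus strand.

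Per2, a partner of the CRY proteins in inhibiting the activators, read 2.14, 6.67, 2.56, 3.35 and 5.55 FPKM in NIKhKO 1 to 5, and 2.73, 2.82, 3.48, 2.82 and 3.40 FPKM in NIKflox 1 to 5. NIKhKO 2 and 5 were the only libraries above the NIKflox range, and NIKhKO 1 and 3 lay below it. Its log2 fold change was 0.47 (SE 0.27, edgeR adjusted p = 0.63), and -0.10 without NIKhKO 2 and 5. Per2 (ENSMUSG00000055866) lies on chromosome 1, 91415982 to 91459324, minus strand.

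Per3, a Per gene that is not required for the rhythm in mice, read 0.399, 1.31, 0.489, 0.616 and 2.02 FPKM in NIKhKO 1 to 5, and 0.213, 0.259, 0.788, 0.432 and 0.435 FPKM in NIKflox 1 to 5. NIKhKO 5 and 2 again stood highest, and NIKflox 3 came next. Per3 had the largest log2 fold change of the 10 members, 1.26 (SE 0.48, 95% interval 0.21 to 2.30, edgeR adjusted p = 0.40), and 0.34 without NIKhKO 2 and 5. Its counts were 106 to 1321 per library, and no other member had so low a minimum. Per3 (ENSMUSG00000028957) lies on chromosome 4, 151003652 to 151044665, minus strand. In GENCODE M21 its span lies wholly within Camta1, on the same strand, which averaged 0.337 FPKM here.

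Cry1, a strong inhibitor of the activators, read 4.20, 4.02, 5.04, 4.86 and 4.16 FPKM in NIKhKO 1 to 5, and 6.82, 6.72, 4.19, 7.28 and 4.46 FPKM in NIKflox 1 to 5. The NIKflox libraries were divided, with 1, 2 and 4 above all NIKhKO libraries and 3 and 5 among them. The log2 fold change was -0.34 (SE 0.17, edgeR adjusted p = 0.56). Cry2, whose transcript oscillates weakly, read 4.87, 4.46, 3.95, 3.49 and 4.04 FPKM in NIKhKO 1 to 5, and 2.93, 3.25, 4.41, 4.15 and 3.46 FPKM in NIKflox 1 to 5. The ranges overlapped, and the log2 fold change was 0.26 (SE 0.11, edgeR adjusted p = 0.48). Cry1 (ENSMUSG00000020038) lies on chromosome 10, 85131700 to 85185064, and Cry2 (ENSMUSG00000068742) on chromosome 2, 92403646 to 92434043, both on the minus strand.

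**Figure D2:**
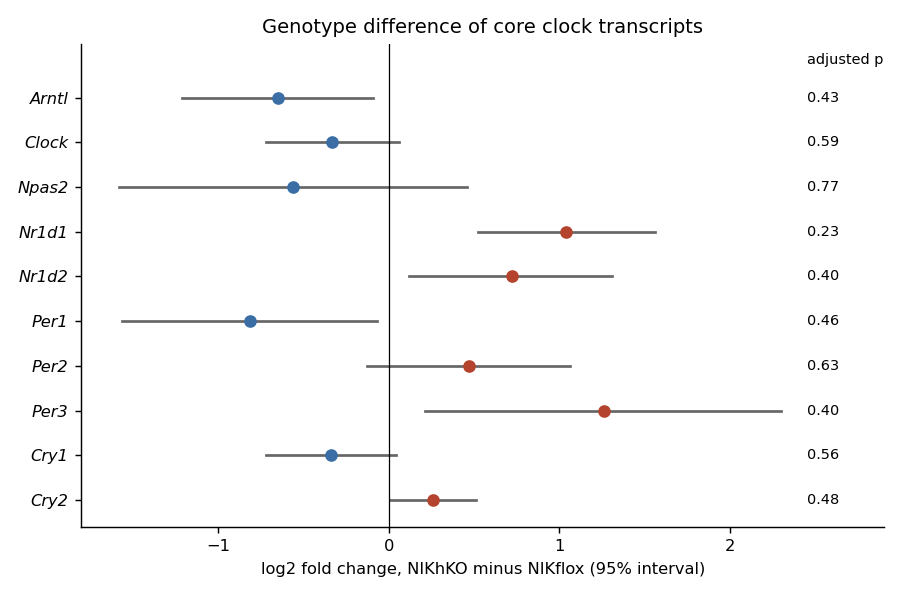
Log2 fold change of each member, NIKhKO minus NIKflox, from edgeR (horizontal axis), with 95% intervals as lines and the adjusted p at the right. Points right of 0 (red) are higher in NIKhKO; the intervals of Nr1d1, Nr1d2, Per3, Cry2, Arntl and Per1 do not include 0, and no adjusted p is below 0.23.

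Several of these differences were smaller without a pair of libraries. NIKhKO 2 and 5 stood apart from the other NIKhKO libraries in Arntl, Npas2, Per2 and Per3. They were left out together as an alternative chosen after seeing the data. Without them, 1 of the 10 members, Nr1d1, had an unadjusted p below 0.05 in edgeR, as did 892 of all 12731 genes tested. Of the members 0 were called. The Nr1d1 log2 fold change was then 1.15 and that of Nr1d2 0.67, while those of Arntl and Npas2 were -0.34 and -0.05. Those of Clock and Cry2 were -0.34 and 0.26, against -0.33 and 0.26 with all libraries. A fit with fewer libraries can also detect less. Leaving out NIKflox 2 and 4, the libraries with heart muscle transcripts, also left Nr1d1 as the 1 member at an unadjusted p below 0.05. Of all 12731 genes tested, 1048 were below it in that fit. The log2 fold changes were then 1.0 for Nr1d1, 0.64 for Nr1d2, 1.07 for Per3, 0.26 for Cry2, -0.58 for Arntl and -0.69 for Per1. With single libraries left out, the number of members at an unadjusted p below 0.05 ran from 2 (without NIKhKO 5) to 7 (without NIKhKO 4). Of all 12731 genes tested, 979 and 1343 were below it in these fits. There were 3 such members without NIKhKO 2, NIKflox 1 or NIKflox 2, where 1115, 1197 and 1260 genes were below it.

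Whether the pattern is one of different clock times was addressed through the members' known order in the day. The sampling time is not in the labels, and which libraries share one was not tested. Of the 4 members that peak in the dark phase or at its end, Arntl, Clock, Npas2 and Cry1, 4 had negative log2 fold changes. Of the 5 that peak from the light phase to dusk, 4 had positive ones, Nr1d1, Nr1d2, Per3 and Per2, and Per1 a negative one. Cry2, with a log2 fold change of 0.26, was placed in neither group. This division into phases was made with earlier results of these data known, and several of these members repress or activate one another, so the counts carry no test.

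A contrast of phases was formed in each library as the mean centred log2(FPKM + 1) of Arntl, Npas2 and Clock minus that of Nr1d1, Nr1d2 and Per3. It leaves out Cry1 and Per1, which had negative log2 fold changes, and Cry2 and Per2, which had positive ones. Per1 is the member whose sign differed from the rest of its phase group. The contrast thus restates the values of the 6 members in it. It was -0.24, -1.0, -0.36, -0.11 and -0.96 in NIKhKO 1 to 5, and 1.23, 0.68, -0.30, 0.73 and 0.33 in NIKflox 1 to 5. NIKflox 3 lay among the NIKhKO libraries and the other 4 NIKflox libraries lay above all of them. The ratio of Arntl to Nr1d1 in FPKM averaged 0.0967 ± 0.0262 in NIKhKO and 0.354 ± 0.151 in NIKflox (SD, n = 5 each). Within NIKhKO the ratio ran from 0.0617 to 0.13, and within NIKflox from 0.152 to 0.528. The ratio restates the Arntl and Nr1d1 values given above, so its separation by genotype adds nothing to them.

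Several members also varied together with Arntl over the 10 libraries. Both genotypes are pooled in the tests that follow, so differences between the genotype means enter them. Arntl was compared with each of the other 9 members over the 10 libraries on the log2(FPKM + 1) scale, with two-sided permutation tests and Benjamini-Hochberg adjustment over the 9 relations. Pearson's r was 0.94 with Npas2 (permutation p = 0.0003, adjusted p = 0.0016), and Spearman's rho was 0.89 (permutation p = 0.0012, adjusted p = 0.0053). With Cry1 r was 0.82 (permutation p = 0.0042, adjusted p = 0.013) and rho 0.90 (permutation p = 0.00063, adjusted p = 0.0053). With Per3 r was -0.89 (permutation p = 0.00036, adjusted p = 0.0016) and rho -0.78 (permutation p = 0.011, adjusted p = 0.032).

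With Per2 r was -0.74 (permutation p = 0.014, adjusted p = 0.032) but rho, at -0.54, did not pass (permutation p = 0.11, adjusted p = 0.13). With Nr1d2 r was -0.69 (permutation p = 0.025, adjusted p = 0.045) and rho -0.56 (permutation p = 0.095, adjusted p = 0.13). That r did not pass on log2(FPKM + 0.1) (permutation test, adjusted p = 0.055) or on log2 CPM (adjusted p = 0.075). With Cry2 r was -0.67 (permutation p = 0.037, adjusted p = 0.055) and rho -0.71 (permutation p = 0.027, adjusted p = 0.061). Relations with Nr1d1 (r = -0.56, permutation p = 0.092, adjusted p = 0.12; rho = -0.61, permutation p = 0.066, adjusted p = 0.12), Per1 (r = 0.54, permutation p = 0.11, adjusted p = 0.12; rho = 0.50, permutation p = 0.14, adjusted p = 0.14) and Clock (r = 0.35, permutation p = 0.33, adjusted p = 0.33; rho = 0.54, permutation p = 0.11, adjusted p = 0.13) did not pass.

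**Figure D3:**
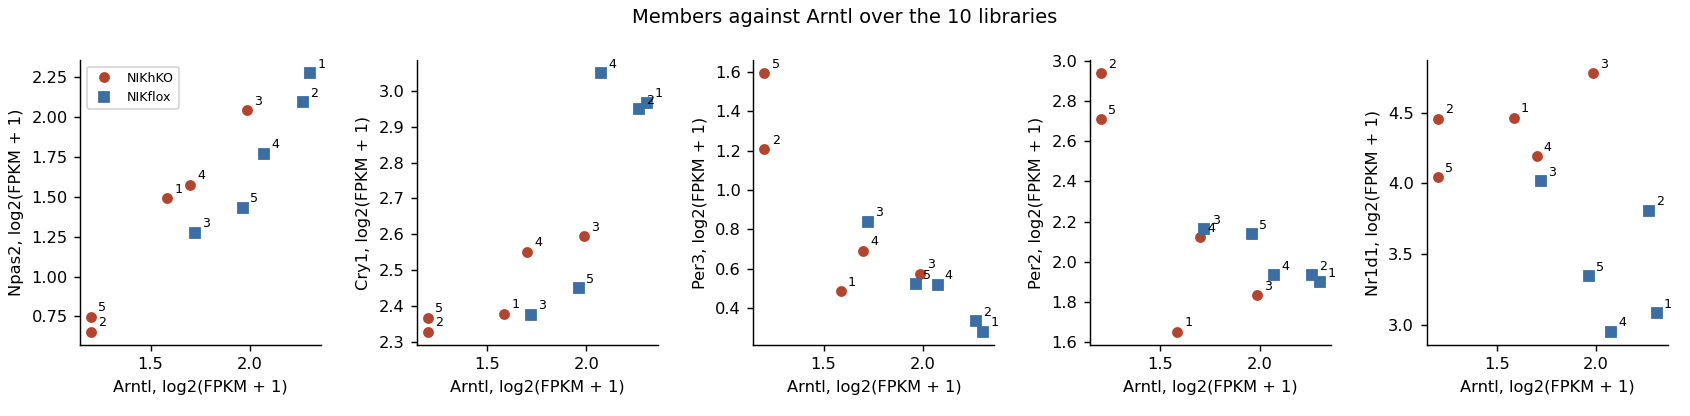
Npas2, Cry1, Per3, Per2 and Nr1d1 (vertical axes) against Arntl (horizontal axes), all as log2(FPKM + 1), in the 5 NIKhKO (red circles) and 5 NIKflox (blue squares) libraries, numbered by library. Libraries with more Arntl have more Npas2 (r = 0.94), with NIKhKO 3 above NIKflox 5 at like Arntl levels (3.12 and 1.70 FPKM of Npas2), while in the Nr1d1 panel all 5 NIKhKO libraries lie above all 5 NIKflox libraries.

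NIKhKO 2 and 5 are also the libraries farthest from the Arntl median. Over the other 8 libraries r was 0.83 with Npas2, 0.84 with Cry1, -0.73 with Per3 and -0.75 with Cry2, and 0 of the 9 relations passed after adjustment. With Per2 r was then -0.03, so that relation rests on NIKhKO 2 and 5. Taking deviations from the genotype means, with permutation within genotype, r was 0.98 with Npas2 (permutation p = 4e-05, adjusted p = 0.00036), -0.86 with Per3 (permutation p = 0.0044, adjusted p = 0.02) and 0.71 with Cry1 (permutation p = 0.007, adjusted p = 0.021). With Per2 the same r was -0.78 (permutation p = 0.028, adjusted p = 0.062) and rho -0.77 (permutation p = 0.0093, adjusted p = 0.028). For Nr1d2 this r was -0.44 (permutation p = 0.16, adjusted p = 0.25), and for Nr1d1 0.04 (permutation p = 0.91, adjusted p = 0.91). The genotype means of Arntl and Nr1d1 thus lay in opposite directions, and no relation of their deviations was detected with 10 libraries. Between Nr1d1 and Nr1d2 the r of these deviations was 0.73, given as a description. Each genotype alone has too few libraries for a correlation of its own.

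Over all 10557 non-member genes with a mean of at least 1 FPKM, the pattern of Arntl was most closely followed by Lgalsl (r = 0.959), Gm44787, Cript, Prelp and Mup19 (r = 0.947). Mup19 belongs to the major urinary protein family, whose copies are nearly identical, so its level is uncertain. The patterns most opposed were those of Ppp4r4 (r = -0.965), Dbp (r = -0.944), the methyltransferase gene Inmt (r = -0.935), the pseudogene Zbed4-ps1 (r = -0.929) and Tmem222 (r = -0.928). Inmt averaged 450 FPKM in NIKhKO and 291 FPKM in NIKflox. For Nr1d1 the closest were BC052040 (r = 0.930), Gm5524, Klk1b4, Rogdi and the cytochrome P450 gene Cyp2b13 (r = 0.890), and the most opposed were Cebpz (r = -0.919), Zfp110, Txndc15, 1110008P14Rik and Taf6 (r = -0.900). On log2 CPM the order differed for both members. For Arntl, Ppp4r4 was then at -0.877, Dbp at -0.894, Inmt at -0.896 and Cript at 0.901. For Nr1d1, Zfp110 was at -0.960, Cebpz at -0.884 and Taf6 at -0.748. No gene stands in both sets. Klk1b4 and Cyp2b13 have close paralogs, so their levels are uncertain. These r values are the extremes of 10557, over 10 libraries, and describe likeness without a test.

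Of 19 other clock regulators and PAR bZIP factors, 15 were tested and 0 were called by edgeR or DESeq2. At an unadjusted p below 0.05 in edgeR, 2 were higher in NIKhKO and 0 lower, where 4.85% and 5.14% of all genes tested were. The median log2 fold change of the list was -0.01, against -0.010 over all genes. Dbp, a PAR bZIP activator that is a direct target of ARNTL and CLOCK, had the largest difference. It read 4.32, 11, 2.29, 3.05 and 8.40 FPKM in NIKhKO 1 to 5, and 0.352, 1.27, 3.68, 0.953 and 0.631 FPKM in NIKflox 1 to 5. NIKhKO 2 and 5 were highest, and NIKflox 3 alone of its genotype lay among the NIKhKO libraries. The log2 fold change of Dbp was 2.13 (SE 0.61, edgeR adjusted p = 0.29), and 1.31 without NIKhKO 2 and 5. Btrc, a subunit of an E3 ubiquitin ligase that marks PER proteins for breakdown, averaged 0.858 ± 0.135 FPKM in NIKhKO and 0.757 ± 0.0684 FPKM in NIKflox (SD, n = 5 each; edgeR adjusted p = 0.49). Rora, which activates Arntl through ROR elements, had a log2 fold change of -0.01. Rorb, Bhlhe41, Ciart and Arntl2 were below the filter.

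Of 20 genes known to be rhythmic in liver, all were tested and 0 were called by edgeR. At an unadjusted p below 0.05 in edgeR, 1 was higher and 2 were lower, where 4.85% and 5.14% of all genes tested were. The median log2 fold change of the list was -0.09. Upp2, a uridine phosphorylase, read 13, 18.3, 11.6, 10.4 and 12.2 FPKM in NIKhKO 1 to 5, and 4.50, 2.32, 8.77, 6.35 and 11.5 FPKM in NIKflox 1 to 5, with NIKflox 5 alone reaching the NIKhKO range (log2 fold change 1.03, SE 0.34, edgeR adjusted p = 0.34). Cdkn1a, which encodes the cell cycle inhibitor p21 and is repressed by REV-ERB alpha, read 1.17, 0.988, 1.80, 2.05 and 1.23 FPKM in NIKhKO 1 to 5, and 4.30, 5.95, 1.3, 3.56 and 3.59 FPKM in NIKflox 1 to 5. NIKflox 3 alone lay among the NIKhKO libraries, and the log2 fold change was -1.31 (SE 0.36, edgeR adjusted p = 0.26). DESeq2 called Cdkn1a, as 1 gene of this list (adjusted p = 0.021), where it called 1.66% of all genes. Avpr1a, a vasopressin receptor, averaged 12 ± 4.51 FPKM in NIKhKO and 21.5 ± 6.19 FPKM in NIKflox (SD, n = 5 each; edgeR adjusted p = 0.37).

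**Figure D4:**
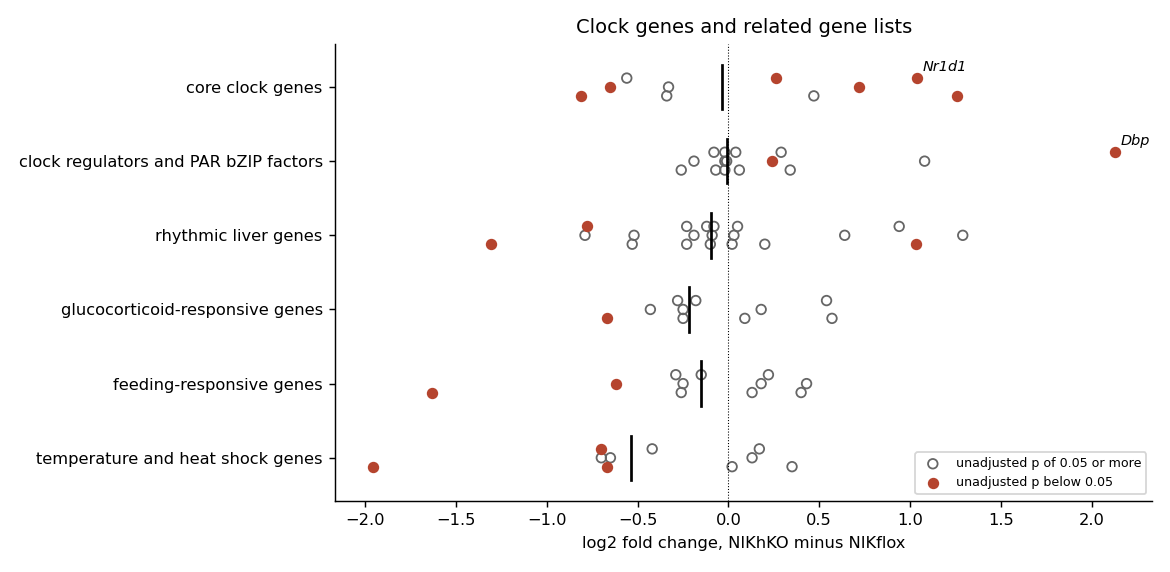
Log2 fold changes, NIKhKO minus NIKflox (horizontal axis), of the 10 core clock genes and of the tested members of 5 related lists; filled points have an unadjusted p below 0.05 in edgeR and black bars are medians. The core clock genes have 6 filled points on both sides of 0, Dbp lies farthest to the right at 2.13, and the temperature and heat shock list has the lowest median, -0.54.

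Lists for the cues that set the liver clock were examined beside the members. Of 10 glucocorticoid-responsive genes 0 were called by edgeR, and the median log2 fold change was -0.21. At an unadjusted p below 0.05 in edgeR, 1 was lower in NIKhKO, where 5.14% of all genes tested were. That gene, Fkbp5, a co-chaperone of the glucocorticoid receptor, read 2.35, 2.20, 2.38, 2.51 and 2.11 FPKM in NIKhKO 1 to 5, and 4.62, 4.11, 3.69, 3.17 and 3.49 FPKM in NIKflox 1 to 5, and the ranges did not overlap (log2 fold change -0.67, SE 0.13, edgeR adjusted p = 0.17). Fkbp5 was the 1 gene of this list that DESeq2 called (adjusted p = 0.0018), where it called 1.66% of all genes. Scaled to total counts only, edgeR also called Fkbp5 (adjusted p = 0.048), among 9 genes in all. Sgk1, a kinase gene induced by glucocorticoids, averaged 6.52 ± 2.14 FPKM in NIKhKO and 9.33 ± 4.59 FPKM in NIKflox (SD, n = 5 each; edgeR adjusted p = 0.72), and the metallothionein gene Mt1 averaged 26.4 ± 15.9 FPKM in NIKhKO and 18.5 ± 5.51 FPKM in NIKflox (SD, n = 5 each; edgeR adjusted p = 0.67). The part of this list in the Per1 value was not tested.

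Of 11 feeding-responsive genes 0 were called by edgeR, with a median of -0.15. At an unadjusted p below 0.05 in edgeR, 2 were lower in NIKhKO, where 5.14% of all genes tested were. Fgf21, a hormone induced by fasting and by ethanol, averaged 2.81 ± 0.355 FPKM in NIKhKO and 9.23 ± 7.39 FPKM in NIKflox (SD, n = 5 each), with NIKflox 2 and 4 at 16.4 and 18.1 FPKM (edgeR adjusted p = 0.29). DESeq2 called Fgf21, as 1 gene of this list (adjusted p = 0.025), where it called 1.66% of all genes. The edgeR log2 fold change of Fgf21, -1.63, became -0.40 without NIKflox 2 and 4. Srebf1, a regulator of fatty acid synthesis genes, averaged 51.8 ± 8.88 FPKM in NIKhKO and 41.0 ± 10.9 FPKM in NIKflox (SD, n = 5 each; edgeR adjusted p = 0.50).

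Of 10 temperature and heat shock genes 0 were called by edgeR, with a median of -0.54. At an unadjusted p below 0.05 in edgeR, 3 were lower in NIKhKO, where 5.14% of all genes tested were. Dnajb1, an HSP40 co-chaperone, read 6.13, 10.4, 9.31, 10 and 9.87 FPKM in NIKhKO 1 to 5, and 13.9, 19.9, 11.7, 17.6 and 13 FPKM in NIKflox 1 to 5, with ranges that did not overlap (log2 fold change -0.67, SE 0.18, edgeR adjusted p = 0.26). DESeq2 called Dnajb1, as 1 gene of this list (adjusted p = 0.041), where it called 1.66% of all genes. Without NIKflox 2 and 4 the edgeR log2 fold change of Dnajb1 was -0.44. Hsph1 averaged 6.77 ± 1.56 FPKM in NIKhKO and 11.6 ± 4.64 FPKM in NIKflox (SD, n = 5 each; edgeR adjusted p = 0.40). Hspa1a, an inducible HSP70 gene with a near-identical copy in Hspa1b, averaged 1.52 ± 0.506 FPKM in NIKhKO and 6.19 ± 7.07 FPKM in NIKflox (SD, n = 5 each; edgeR adjusted p = 0.43), with NIKflox 2 and 4 highest at 17.5 and 8.58 FPKM. Hsph1 was also highest there, at 14.8 and 17.5 FPKM. Without these libraries, which hold heart muscle transcripts, the log2 fold change of Hsph1 was -0.29 in place of -0.70, and that of Hspa1a -0.06 in place of -1.96. The cold-inducible Cirbp had a log2 fold change of 0.17 and Rbm3 one of 0.35.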

How the data were processed

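Liver RNA from 5 NIKhKO and 5 NIKflox mice was captured with oligo(dT) beads, per the labels' protocols. Per the submitters' processing notes, the tools were edgeR, StringTie 1.3.4d, HISAT2 2.0.4 and cutadapt 1.9, listed with no role or order, and the build was the human hg38. The gene identifiers are mouse, and 93.8% of the table's genes have the start and end of GENCODE M21 on GRCm38, so coordinates are read as GRCm38. The deposited FPKM values carry that name in their column titles, per the file headers. The deposited estimated counts are whole numbers and not normalized. Their low values pile up at 4 (907 genes per library, against 330.5 at 3 and 175.8 at 5), so 1 count need not be 1 read pair, and the totals are not read numbers.

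Groups and replicate numbers come from the sample titles. Litters and cages are not labelled, so the p-values cover only the variation among these 10 libraries, part of which may be technical. Genes with a mean of at least 0.5 FPKM, and Map3k14 whatever its level, were tested (12731) with edgeR 4.0.16 in R 4.3.3, by the quasi-likelihood test with TMM normalization, two-sided, with Benjamini-Hochberg adjustment over all genes and calls at an adjusted p below 0.05. SE is the log2 fold change over the square root of F, and 95% intervals use the test's degrees of freedom. The fit was tested on simulated data. Relations between members used numpy 2.4.6 and 100000 resamples.

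All 10 members are described; of other lists, called genes are named, or else the 3 with the smallest p, except that some results are not reported here. For likeness, the 5 genes at each end are named. Members and lists were chosen with earlier results of these data known, and Tef, Bhlhe40, Klf10, Rgs16, Rora, Cirbp, Rbm3, Usp2 and Noct were named after their values were seen. Alternatives covered scaling, filter, pseudocount, DESeq2 1.42.0, limma 3.58.1, voom, robust shrinkage, the replicate block, counts divided by 4 and left-out libraries.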

Additional observations from a re-analysis of the deposited data

Results flagged for a closer look

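Within a genotype, 1 library lay far from the other 4 for the following transcripts, in 60 groups checked. This was judged by its gap to the nearest library over the whole range. Chance flags about 1 in 20 groups of genes chosen without regard to their values, if values are normally distributed. Tef, Bhlhe40, Klf10 and Rgs16 were put among the genes checked after their values were seen, so that rate does not apply to their groups. Nor does it apply to genes named for a small p in these data, among them Dbp, Avpr1a and Dnajb1. In NIKhKO 3, Bhlhe40 read 62.2 FPKM (7.76 to 15.9 in the other NIKhKO libraries), Klf10 24.3 FPKM (1.29 to 4.30) and Rgs16 214 FPKM (7.90 to 52.2). Rgs16 also read 113 FPKM in NIKflox 2 (1.75 to 10.1 in the other NIKflox libraries). Avpr1a read 20.1 FPKM in NIKhKO 4 (9.78 to 10.5) and Dnajb1 6.13 FPKM in NIKhKO 1 (9.31 to 10.4). Among NIKflox libraries, Dbp read 3.68 FPKM in NIKflox 3 (0.352 to 1.27), Map3k14 0.899 FPKM in NIKflox 4 (0.483 to 0.585) and Thra 5.33 FPKM in NIKflox 2 (4.11 to 4.24). None of the 10 core clock genes was among these transcripts in either genotype. The rule looks for 1 library apart from the rest, so 2 libraries that deviate together hide each other. NIKhKO 2 and 5 did so in Per2, at 6.67 and 5.55 FPKM, with NIKhKO 4 next highest at 3.35 FPKM. They did so in Npas2 as well, at 0.573 and 0.681 FPKM, with NIKhKO 1 next lowest at 1.81 FPKM. The lack of a flag thus does not show that no library stood apart in the clock genes.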

How the results depend on the processing

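No alternative other than DESeq2, which called 1 (Nr1d1), called a core clock gene, and no member changed direction except Per2, at -0.10 without NIKhKO 2 and 5. Over all genes the 3 calls became 207 with DESeq2, 9 with scaling to total counts only, 6 with robust shrinkage, 5 with voom and sample weights, 1 without NIKflox 2 and 4, 0 with limma at either pseudocount (1375 and 1365 genes at an unadjusted p below 0.05), and 0 to 24 when single libraries were left out (24 without NIKhKO 4, 3 without NIKflox 3 and 0 without each of the other 8). The cause was not tested. DESeq2 also called Cdkn1a, Fkbp5, Fgf21 and Dnajb1. The replicate numbers share no stated origin, and deviations of same-numbered libraries correlated at -0.32 to 0.03, with 0 of 5 NIKhKO libraries closest to their own number. With the replicate block 2 genes and 0 members were called. Without NIKhKO 3 or without NIKflox 3, 2 members had ranges that did not overlap, against 1 in each other left-out fit. Ranges separate more easily with fewer libraries, and the share of all genes was not computed for these fits, so the rise is not interpreted. Of the relations of Arntl, judged by r, 5 passed over all libraries and 4 on log2(FPKM + 0.1). On log2 CPM 5 passed (Cry2 with an adjusted p of 0.045 in the permutation test, in place of Nr1d2). As deviations from the genotype means 3 passed (Npas2, Per3 and Cry1), and r was -0.13 with Clock and 0.04 with Nr1d1. By rho Per2 also passed in that form (permutation test, adjusted p = 0.028). Without NIKhKO 2 and 5, with 8 libraries left, 0 passed. Bhlhe40 and Klf10 had negative log2 fold changes with limma (-0.19 and -0.02 with a pseudocount of 1, -0.21 and -0.17 with 0.1), voom (-0.26 and -0.35), the replicate block (-0.20 and -0.26) and without NIKhKO 3 (-0.68 and -0.70), where Rgs16 was at -0.14. With single libraries left out, their ranges were -0.68 to 0.55 for Bhlhe40, -0.70 to 1.22 for Klf10 and -0.14 to 3.63 for Rgs16. With single libraries left out, members ranged from -0.87 to -0.51 (Arntl), -0.45 to -0.21 (Clock), -0.96 to -0.33 (Npas2), -1.14 to -0.66 (Per1), 0.25 to 0.63 (Per2), 0.78 to 1.6 (Per3), -0.43 to -0.26 (Cry1), 0.21 to 0.34 (Cry2), 0.90 to 1.22 (Nr1d1) and 0.54 to 1.0 (Nr1d2). Counts divided by 4 left Per3, the member with the lowest minimum count, at 1.26.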

Other observations

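Other transcripts tied to the clock also varied widely between libraries of 1 genotype. Tef, a PAR bZIP relative of Dbp, read 6.27, 12.3, 3.78, 2.13 and 6.79 FPKM in NIKhKO 1 to 5, and 0.428, 3.54, 4.81, 3.65 and 3.0 FPKM in NIKflox 1 to 5. It was highest in NIKhKO 2 and lowest in NIKflox 1, which were also the highest and the lowest libraries for Dbp (11 and 0.352 FPKM). In edgeR the log2 difference of Tef was 1.08 (SE 0.54) at an adjusted p of 0.55. Usp2, a rhythmic deubiquitinase gene, read 1.75 and 1.7 FPKM in NIKhKO 2 and 5 and 0.282 to 0.471 FPKM in NIKhKO 1, 3 and 4, and spread from 0.411 to 1.71 FPKM in NIKflox. Noct, which encodes nocturnin, read 3.70 and 3.07 FPKM in NIKhKO 2 and 5 and 0.66 to 2.39 FPKM in the other NIKhKO libraries, and 0.86 to 3.69 FPKM in NIKflox.

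NIKhKO 3, with the highest Nr1d1 (26.5 FPKM) and the lowest Clock (0.947 FPKM), was also highest of all libraries for Bhlhe40, Klf10 and Rgs16. Bhlhe40 (also called DEC1), a repressor that competes for E-boxes, read 7.76, 9.89, 62.2, 15.9 and 9.17 FPKM in NIKhKO 1 to 5, and 11, 17.8, 20.4, 26.8 and 13.8 FPKM in NIKflox 1 to 5. Without NIKhKO 3 its edgeR log2 fold change was -0.68 (adjusted p = 0.46; 0.34 with it, and adjusted p = 0.89). The genes of both paragraphs were chosen after their values were seen.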
